A study of Homo sapiens with 12 samples.

Results

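The 48 genes described here run the cell division cycle. Of them, 22 act in passage from G1 into S phase and in DNA replication (S-phase class) and 26 act in G2 and mitosis (mitotic class). They were picked by gene symbol from a deposited table in which 57152 genes had a value. All 48 were found, and all 48 passed the filter on low values (mean TPM of 1 or more over all 12 libraries) that left 13968 genes for testing. TPM is a transcript's share of a library's RNA molecules, corrected for transcript length, so levels can be compared between genes.

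RNA was sequenced from 4 groups of 3 libraries each. In one group, LB cells were seeded in 10 mg/ml hydroxypropyl-beta-cyclodextrin (HPbCD), a ring of sugars that binds cholesterol, and 24 h later were given 10 µM amiodarone, a cationic amphiphilic antiarrhythmic drug, for a further 24 h. Another group of LB cells had amiodarone without HPbCD, the next had the vehicle, 0.1% DMSO, and the last group was A549 cells, a human lung adenocarcinoma line, with the same vehicle. The labels do not say whether the amiodarone groups also held DMSO. They name A549 as the source of the LB cells and do not say how the line was made. LB cells with HPbCD alone and A549 cells with amiodarone were not analysed here, so HPbCD was compared only in the presence of the drug.

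TPM values summed to between 999449 and 999632 in each library, so the read depth behind a value is unknown. Mitochondrially encoded transcripts held 5.38% to 9.19% of TPM, with overlapping ranges in the 4 groups. The overlap was slight between amiodarone plus HPbCD (5.38% to 6.730%) and LB DMSO (6.727% to 8.41%). Of 5 epithelial markers, all 5 were at 1 TPM or more in every library, with summed levels of 2561 to 2956 TPM in LB cells with amiodarone plus HPbCD, 2748 to 3127 TPM with amiodarone, 2894 to 3223 TPM in LB DMSO and 7254 to 7791 TPM in A549 DMSO. Of 6 alveolar type II markers, 5 were at 1 TPM or more in every LB library and 2 in every A549 library. Their sum was 1320 to 1579 TPM with amiodarone plus HPbCD, 1166 to 1273 TPM with amiodarone, 1363 to 1527 TPM in LB DMSO and 22.3 to 22.7 TPM in A549 DMSO. Of 5 leukocyte markers, only CD68, a protein of lysosomes and late endosomes, reached 1 TPM in every library. The leukocyte sum was 81.2 to 85.8 TPM with amiodarone plus HPbCD, 32.5 to 38.3 TPM with amiodarone, 25.1 to 27.8 TPM in LB DMSO and 10.1 to 13.4 TPM in A549 DMSO. Endothelial sums stayed at or below 0.85 TPM and fibroblast sums at or below 16.1 TPM. The part of these markers in the differences below was not tested.

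Cells license replication origins in G1 by loading the MCM helicase with the help of CDC6 and CDT1. At the start of S phase, CDC45 and the GINS complex join MCM to make the active helicase, and polymerases, the sliding clamp PCNA and the flap nuclease FEN1 copy the DNA. Cyclin D and cyclin E kinases inactivate RB proteins and so free E2F factors, which switch on most replication genes. Genes of G2 and mitosis come on later, through the MuvB complex with B-MYB (MYBL2) and FOXM1, at promoters that carry a cell cycle homology region (CHR), often near CCAAT boxes bound by NF-Y. CDK1 with cyclin B, Polo-like and Aurora kinases drive mitosis, and CDC20 with the anaphase-promoting complex ends it. RNA levels of both classes therefore track the share of a culture that is cycling.

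Promoter sequences, at hand for 38 of the 48 genes, held E2F-like and CHR letters in unlike shares in the S-phase and mitotic classes. Neither kind was confined to its class, and CCAAT letters were common in both. A RefSeq table (GRCh38.p14) held the 250 bases before and 50 bases after a gene's first-listed start for 27305 genes, among them 38 of the 48 (18 S-phase, 20 mitotic). E2F-like letters (TTTCCCGC, TTTCGCGC, TTTGCCGC or TTTGGCGC, on either strand) occurred in 13 of 18 S-phase promoters (72.2%) and 3 of 20 mitotic promoters (15.0%), against 3.33% of all promoters. CHR letters (TTTGAA or TTTAAA, on either strand, the second being its own reverse complement) occurred in 3 of 18 S-phase promoters (16.7%) and 16 of 20 mitotic promoters (80.0%), against 24.3% of all. The letters CCAAT, on either strand, were in 12 S-phase promoters (66.7%) and 17 mitotic promoters (85.0%), against 35.7% of all. CHR and CCAAT letters stood together in 2 S-phase promoters (11.1%) and 14 mitotic promoters (70.0%), against 9.49% of all. These are matches of letters in a fixed window, not measured binding. E2F matches on opposite strands can overlap, as they do in MCM6, and a CCAAT match can share a base with a CHR match. MCM4, MCM5, CCNE2, CCND1, UBE2C, AURKA, TTK, BIRC5, TPX2 and FOXM1 were not among the 38.

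Stretches of 60 bases from 8 of these promoters are printed to show the letters beside genes whose levels follow below, 4 of each class. None of them lies in an exon annotated in GENCODE 29. Each is given 5′ to 3′ on the gene's own strand, with E2F letters in capitals in the S-phase genes and CHR letters in capitals in the mitotic genes. MCM3 and MCM6 encode helicase subunits, PCNA the sliding clamp and POLA1 the catalytic subunit of DNA polymerase alpha. CDC20 encodes the activator of the anaphase-promoting complex, KIF11 a spindle motor, MKI67 the proliferation antigen Ki-67 and TOP2A a DNA topoisomerase.
MCM3, chr6:52284887-52284946, minus strand: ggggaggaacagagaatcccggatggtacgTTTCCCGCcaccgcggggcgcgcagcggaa
MCM6, chr2:135876500-135876559, minus strand: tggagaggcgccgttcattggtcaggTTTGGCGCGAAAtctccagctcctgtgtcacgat
PCNA, chr20:5126652-5126711, minus strand: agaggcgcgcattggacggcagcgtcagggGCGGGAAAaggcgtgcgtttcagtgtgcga
POLA1, chrX:24693751-24693810, plus strand: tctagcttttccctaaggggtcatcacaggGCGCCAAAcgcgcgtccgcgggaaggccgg
CDC20, chr1:43358886-43358945, plus strand: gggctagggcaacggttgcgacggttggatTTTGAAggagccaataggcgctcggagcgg
KIF11, chr10:92593070-92593129, plus strand: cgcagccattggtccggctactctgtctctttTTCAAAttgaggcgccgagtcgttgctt
MKI67, chr10:128126424-128126483, minus strand: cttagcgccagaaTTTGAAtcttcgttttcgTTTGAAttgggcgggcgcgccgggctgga
TOP2A, chr17:40418018-40418077, minus strand: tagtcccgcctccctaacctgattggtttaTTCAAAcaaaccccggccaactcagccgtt
In CDC20 the CHR letters are followed by ccaat, and in KIF11 and TOP2A they are preceded by attgg, the same letters read on the other strand.

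The members spanned a wide range of levels. In A549 DMSO, mean levels of the S-phase class lay between 8.03 TPM (CCNE2, cyclin E2) and 477 TPM (PCNA), with a median over genes of 85.7 TPM, and those of the mitotic class between 8.70 TPM (CENPE, a kinetochore motor) and 322 TPM (CCNB1, cyclin B1), with a median of 91.2 TPM. The summed level of the 22 S-phase genes was 1768 ± 65.0 TPM in LB cells with amiodarone plus HPbCD, 1724 ± 89.5 TPM with amiodarone, 2046 ± 75.1 TPM in LB DMSO and 2472 ± 62.6 TPM in A549 DMSO (SD, n = 3 each). The 26 mitotic genes summed to 1627 ± 56.0 TPM with amiodarone plus HPbCD, 1579 ± 115 TPM with amiodarone, 1999 ± 70.9 TPM in LB DMSO and 2597 ± 120.4 TPM in A549 DMSO. Both sums were thus lowest in the drug-treated LB groups and highest in A549 cells. In these bulk libraries, fewer cycling cells and less RNA per cycling cell cannot be told apart.

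**Figure D1:**
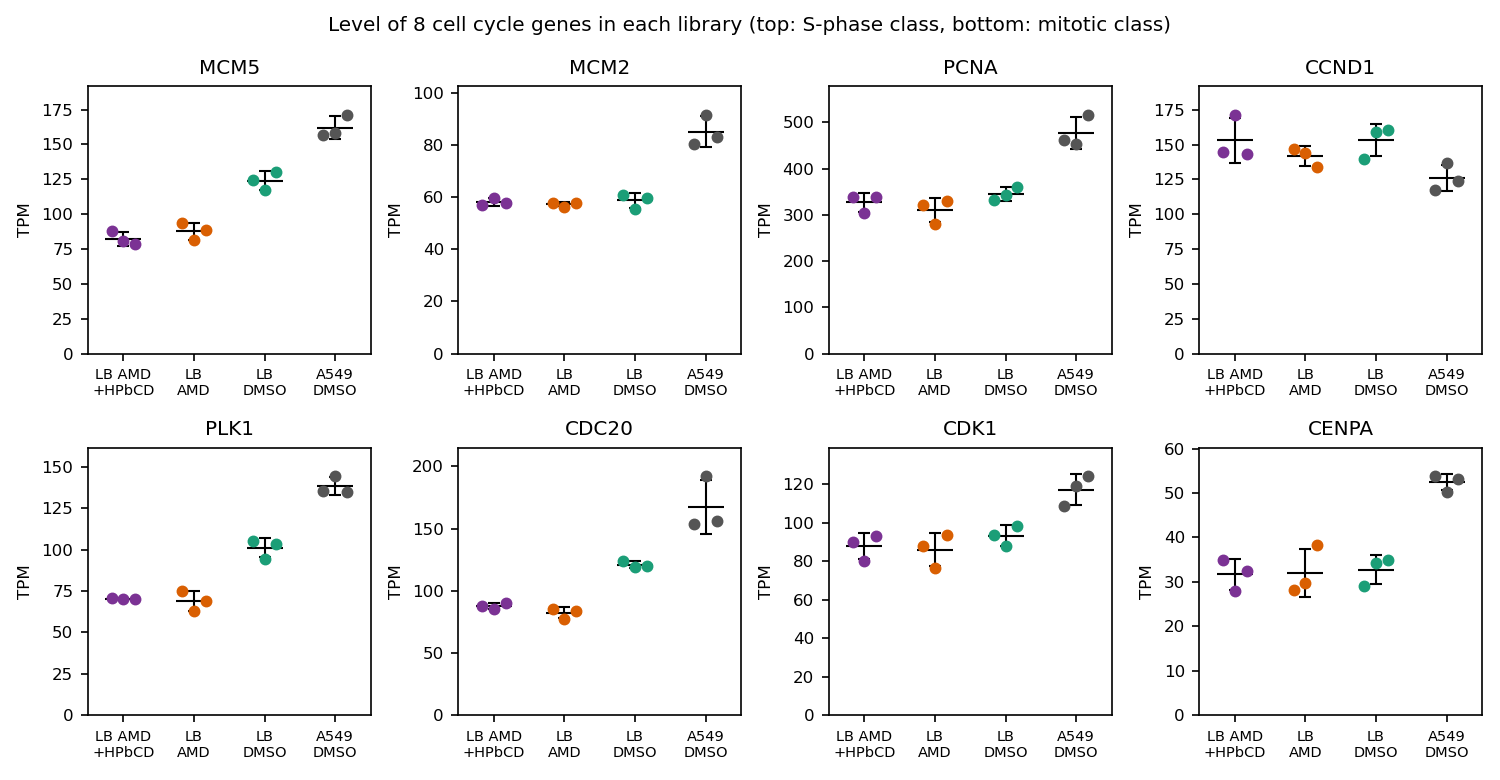
TPM of 8 members in each of the 12 libraries (points), with group means (wide bars) and SDs (error bars, n = 3), for LB cells with amiodarone (AMD) plus HPbCD, LB with amiodarone, LB DMSO and A549 DMSO from left to right. MCM5, PLK1 and CDC20 fall into 3 levels, with both drug-treated groups lowest and A549 highest, while MCM2, PCNA, CDK1 and CENPA are set apart mainly by A549 and CCND1 is on average lowest in A549.

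The lines were first compared without drug, LB DMSO against A549 DMSO. Most of them were lower in LB cells: 34 of the 48 fell, 1 rose and 13 did not pass the test (limma, adjusted p under 0.05), where 18.2% of all genes tested fell, 14.2% rose and 32.4% passed in either direction. Of the S-phase class, 14 of 22 fell and CCND1 rose, with a median log2 difference of -0.24. Of the mitotic class, 20 of 26 fell and none rose, with a median of -0.35, beside a median of -0.04 over all genes tested. All 3 LB libraries lay below all 3 A549 libraries for 39 of the 48 genes, against 25.1% of all genes, and above them for 1, against 18.6% of all genes. Differences are of log2(TPM + 1), a scale that makes changes of low genes look smaller, and are given with limma's SE. The labels do not state whether the replicates of a group were grown apart. The p-values therefore reflect the spread among these libraries alone, and it may be technical.

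Among the origin and helicase genes, GINS2 (chromosome 16, 85676198 to 85690073, minus strand, GENCODE 29 on GRCh38), a subunit of the GINS complex, fell most. It had 17.7, 21.3 and 20.3 TPM in LB DMSO, against 32.1, 39.4 and 38.8 TPM in A549 DMSO. The highest LB library was thus well below the lowest A549 library, and the log2 difference was -0.86 ± 0.12 (SE, adjusted p = 0.000123). Of the 6 MCM subunits, 5 fell. MCM2 was at 60.8, 55.5 and 59.7 TPM in LB DMSO and 80.1, 91.5 and 83.1 TPM in A549 DMSO (log2 difference -0.53 ± 0.057, adjusted p = 2.01e-05). MCM5 (chromosome 22, 35400063 to 35425430, plus strand) was at 124, 118 and 131 TPM in LB DMSO and 157, 158 and 171 TPM in A549 DMSO (log2 difference -0.38, adjusted p = 0.000769). In neither gene did the groups overlap. MCM4, MCM7 and MCM6 fell by 0.45, 0.25 and 0.21 on the log2 scale. MCM3 did not pass, at 83.5, 80.6 and 84.9 TPM in LB DMSO and 87.5, 85.9 and 86.0 TPM in A549 DMSO (log2 difference -0.06, adjusted p = 0.382). Its 2 groups did not overlap, but they lay close together. CDC45, a partner of the active helicase, fell by 0.31. The licensing factors CDC6 (log2 difference -0.09, adjusted p = 0.302) and CDT1 (-0.01, adjusted p = 0.937) did not pass.

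The synthesis machinery and the nucleotide supply were lower too. PCNA (chromosome 20, 5114953 to 5126626, minus strand) was at 332, 342 and 361 TPM in LB DMSO, against 462, 452 and 517 TPM in A549 DMSO. It was the most abundant S-phase member in both groups, the groups were far apart, and the log2 difference was -0.46 ± 0.072 (adjusted p = 0.000344). POLA1 (log2 difference -0.35) and FEN1 (-0.22) fell, and POLE2, the second subunit of polymerase epsilon, did not pass (-0.20, adjusted p = 0.266). TYMS, thymidylate synthase, fell by 0.36 and RRM1, the large subunit of ribonucleotide reductase, by 0.20. RRM2, the small subunit, was at 173, 199 and 214 TPM in LB DMSO and 185, 239 and 192 TPM in A549 DMSO. Its groups overlapped, and the difference of -0.07 did not pass (adjusted p = 0.648).

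The G1/S control genes were mixed. CCND1 (chromosome 11, 69641087 to 69654474, plus strand), cyclin D1, was the only member that rose. It had 139.7, 159 and 161 TPM in LB DMSO, against 118, 137 and 124 TPM in A549 DMSO. The lowest LB library was just above the highest A549 library, and the log2 difference was 0.28 ± 0.082 (adjusted p = 0.0209). CCNE1, cyclin E1, had the same mean in both groups to 2 decimals of log2 (difference 0.00, 95% interval -0.16 to 0.16), and CCNE2 did not pass (-0.31, adjusted p = 0.121). E2F1, a transcription factor of replication genes, fell by 0.22. UHRF1, which carries DNA methylation through replication, fell further: 43.7, 41.6 and 41.7 TPM in LB DMSO and 59.2, 63.7 and 56.1 TPM in A549 DMSO, with no overlap (log2 difference -0.48, adjusted p = 0.000260).

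In the mitotic class, CENPA (chromosome 2, 26764289 to 26801067, plus strand), the centromeric histone H3 variant, fell most. It was at 29.0, 34.3 and 35.0 TPM in LB DMSO, against 53.8, 50.3 and 53.3 TPM in A549 DMSO. All A549 libraries were above 50 TPM and all LB libraries were at or below 35.0 TPM (log2 difference -0.67 ± 0.11, adjusted p = 0.000734). Of 7 cyclin, CDK1 and ubiquitin ligase genes, 6 fell, led by CCNB2, cyclin B2, at 68.4, 75.1 and 77.0 TPM in LB DMSO and 100.2, 114 and 109 TPM in A549 DMSO (log2 difference -0.54). CDC20 fell by 0.46, CCNA2 (cyclin A2) by 0.35, CDK1 by 0.33, UBE2C (the ubiquitin-conjugating enzyme of the anaphase-promoting complex) by 0.31 and CCNB1 by 0.28. CDC25C, the phosphatase that activates CDK1, did not pass (-0.26, adjusted p = 0.0854). Of the 6 mitotic kinases, AURKB (-0.52), PLK1 (-0.45), BUB1 (-0.31) and BUB1B (-0.31) fell. AURKA was -0.13 (adjusted p = 0.0972) and TTK, a spindle checkpoint kinase, 0.02 (adjusted p = 0.929).

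All 7 genes of the spindle and FOXM1 list fell in LB DMSO. Their log2 differences lay between -0.49 (NUSAP1, a microtubule binder) and -0.32 (KIF23, a cytokinesis motor), with KIF11, TPX2, HMMR, FOXM1 and KIF20A between. Among chromosome and kinetochore genes, TOP2A (-0.49) and BIRC5 (-0.45), which encodes survivin, fell along with CENPA. MKI67 was at 50.7, 34.6 and 47.0 TPM in LB DMSO and 55.0, 50.3 and 50.0 TPM in A549 DMSO. One LB library lay inside the A549 range, and the difference of -0.24 did not pass (adjusted p = 0.160). CENPE (-0.26, adjusted p = 0.113) and CENPF (-0.02, adjusted p = 0.902) did not pass either.

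With 1 library left out, 29 of these 35 calls were kept each time. MCM6, HMMR, RRM1 and CCND1 were lost without A549 DMSO replicate 1 (adjusted p = 0.0534 to 0.0777), MCM6 without replicate 2 (0.0783), and those 4 and CCNA2 without replicate 3 (0.0507 to 0.0738), while MCM6, HMMR and RRM1 were lost without LB DMSO replicate 1 (0.0562 to 0.104), those 3 with CCND1, CCNA2 and POLA1 without replicate 2 (0.0565 to 0.127) and CCND1 without replicate 3 (0.0762).

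**Figure D2:**
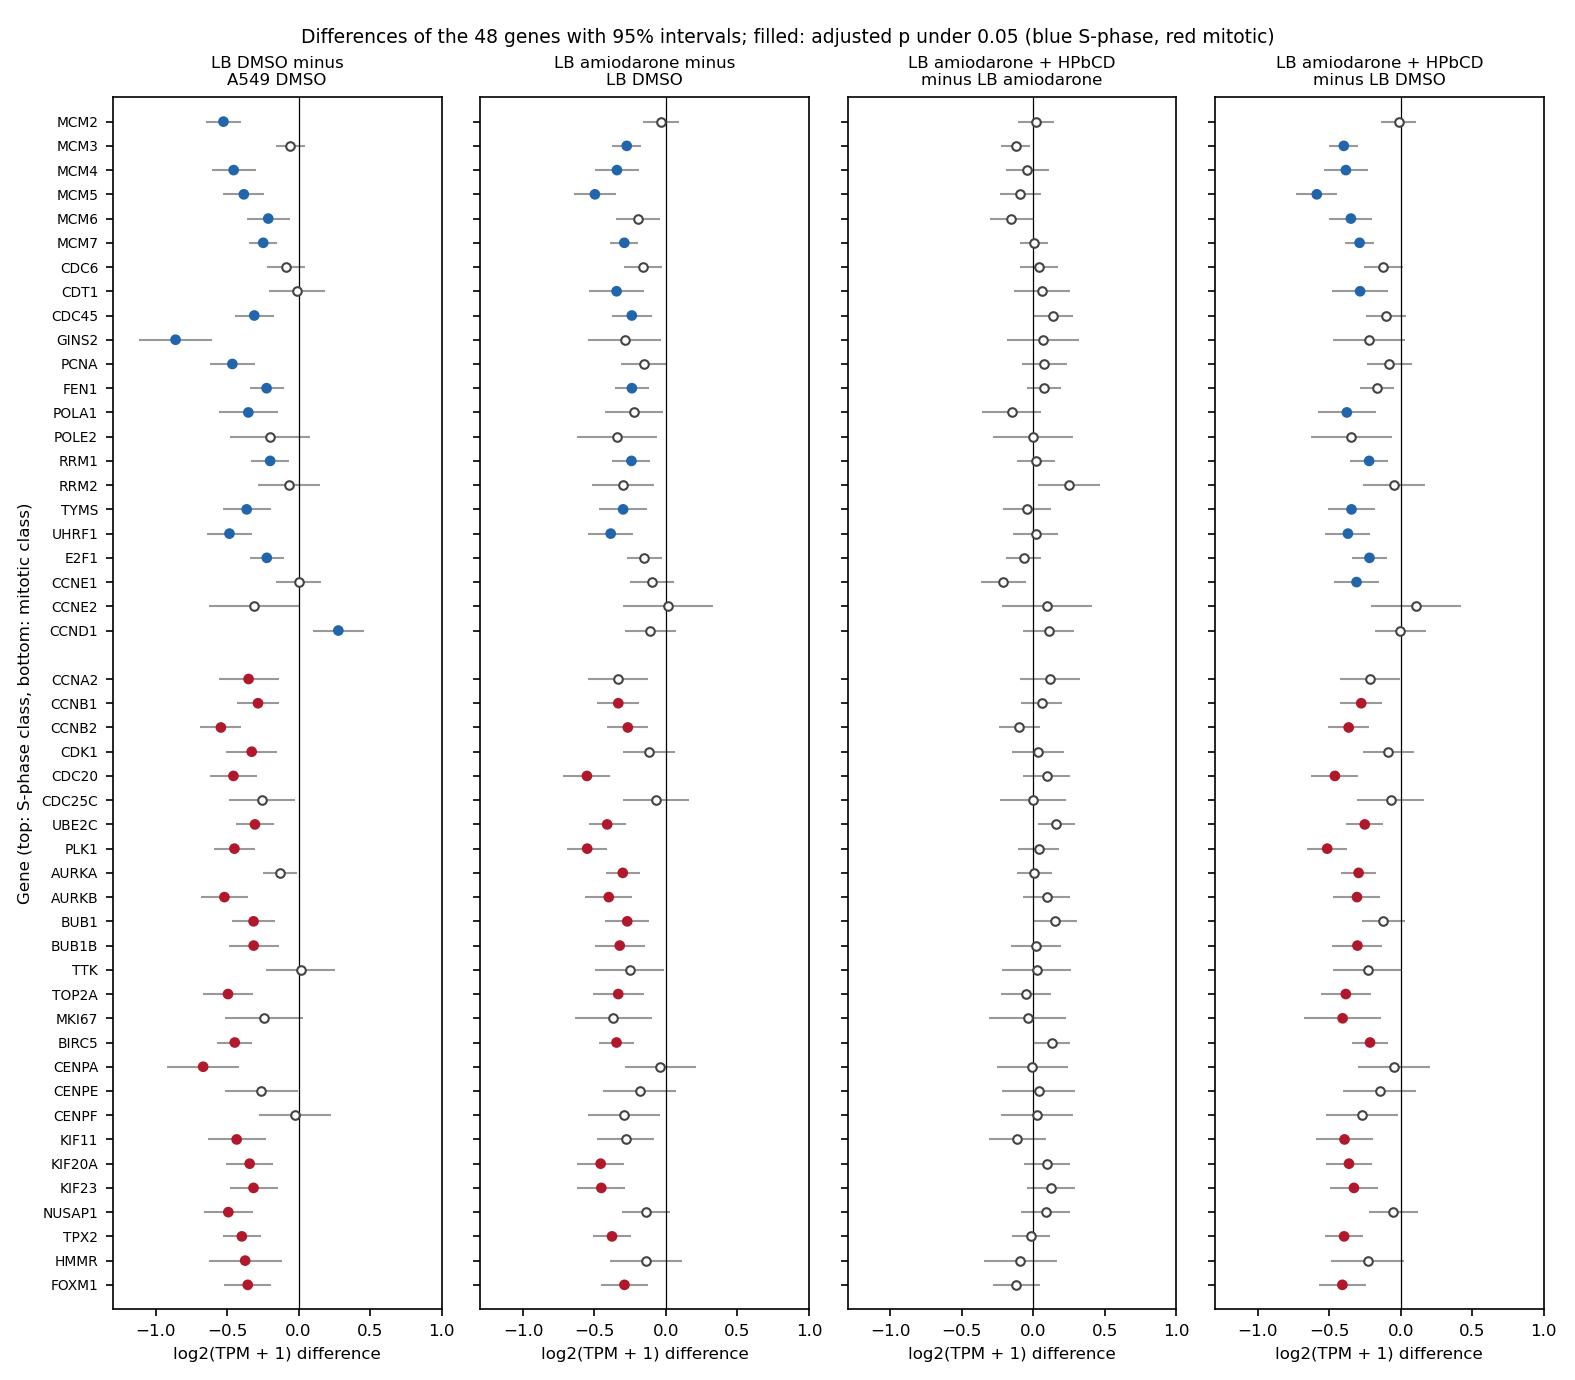
Log2(TPM + 1) differences of all 48 genes (points) with 95% intervals from limma (lines), in 4 panels by comparison, the first-named group minus the second. Filled points have an adjusted p under 0.05 (S-phase class blue, mitotic class red). No point is filled in the panel of LB cells with amiodarone plus HPbCD minus LB cells with amiodarone, and nearly all points lie left of 0 in the other panels.

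LB cells with amiodarone were compared with LB DMSO to find what the drug did to the same genes. Of the 48, 25 fell and none rose, where 3.72% of all genes tested fell, 4.90% rose and 8.62% passed in either direction. The fall was seen in 10 of 22 S-phase genes (median log2 difference -0.24) and 15 of 26 mitotic genes (median -0.31), beside a median of 0 to 2 decimals over all genes tested. Mean levels were lower with amiodarone for 47 of the 48 genes. All 3 drug-treated libraries lay below all 3 vehicle libraries for 35, against 14.8% of all genes. Among the genes that fell, mean TPM was 15.4% to 29.3% lower in the S-phase class and 17.1% to 32.0% lower in the mitotic class. This comparison shares the LB DMSO libraries with the one above.

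The largest S-phase change was in an MCM subunit. MCM5 was at 93.4, 81.1 and 88.7 TPM with amiodarone, against 124, 118 and 131 TPM in LB DMSO. Every treated library was below every vehicle library, and the log2 difference was -0.50 ± 0.066 (adjusted p = 0.000632). MCM4 (-0.34), MCM7 (-0.29) and MCM3 (-0.27) fell as well. MCM3 was at 69.5, 66.7 and 69.2 TPM with amiodarone and 83.5, 80.6 and 84.9 TPM in LB DMSO, without overlap (adjusted p = 0.00378). MCM6 did not pass (-0.20, adjusted p = 0.106). MCM2 was at 57.7, 56.3 and 57.7 TPM with amiodarone and 60.8, 55.5 and 59.7 TPM in LB DMSO. The groups overlapped, and the 95% interval of the MCM2 difference ran from -0.16 to 0.09, while the MCM5 interval ran from -0.64 to -0.35. The difference between subunits was not tested. CDT1 fell, at 35.2, 34.9 and 31.8 TPM with amiodarone and 49.0, 39.0 and 42.8 TPM in LB DMSO (log2 difference -0.35, adjusted p = 0.0342), and CDC45 fell by 0.24. CDC6 (-0.16, adjusted p = 0.136) and GINS2 (-0.29, adjusted p = 0.155) did not pass, although neither gene's groups overlapped.

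Of the 4 synthesis genes, FEN1 alone fell, by 0.24 (adjusted p = 0.0193). PCNA was at 321, 280.0 and 330.2 TPM with amiodarone and 332, 342 and 361 TPM in LB DMSO. The treated libraries were lower, the closest pair only slightly so, and the difference of -0.16 did not pass (adjusted p = 0.218). POLA1 (-0.23, adjusted p = 0.171) and POLE2 (-0.34, adjusted p = 0.130) did not pass. For nucleotide supply, TYMS fell by 0.30 and RRM1 by 0.24. RRM2 was at 157, 154 and 163 TPM with amiodarone and 173, 199 and 214 TPM in LB DMSO (log2 difference -0.30, adjusted p = 0.0888). Its groups did not overlap, but the vehicle libraries were spread widely. In G1/S control, UHRF1 fell by 0.39 (adjusted p = 0.00642). E2F1 (-0.15, adjusted p = 0.122), CCNE1 (-0.10, adjusted p = 0.468), CCND1 (-0.11, adjusted p = 0.478) and CCNE2 (0.01, adjusted p = 0.976) did not pass.

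CDC20 and PLK1 had the largest differences of all 48 genes under amiodarone. CDC20 (chromosome 1, 43358955 to 43363203, plus strand) was at 85.5, 77.3 and 84.0 TPM with amiodarone, against 124, 119 and 120.0 TPM in LB DMSO (log2 difference -0.55 ± 0.075, adjusted p = 0.000751). PLK1 (chromosome 16, 23677656 to 23690367, plus strand), Polo-like kinase 1, was at 75.0, 62.6 and 69.1 TPM with amiodarone and 106, 94.6 and 104 TPM in LB DMSO (log2 difference -0.55 ± 0.065, adjusted p = 0.000242). In both genes the highest treated library stayed well under the lowest vehicle library. Of the other kinases, AURKB (-0.40), BUB1B (-0.32), AURKA (-0.30) and BUB1 (-0.27) fell and TTK did not pass (-0.25, adjusted p = 0.194). UBE2C was at 166, 152 and 166 TPM with amiodarone and 208, 211 and 226 TPM in LB DMSO (log2 difference -0.41). CCNB1 (-0.33) and CCNB2 (-0.27) fell. CCNA2 narrowly missed the threshold (-0.33, adjusted p = 0.0532). CDK1, the kinase they activate, was at 87.9, 76.6 and 93.5 TPM with amiodarone and 93.4, 87.7 and 98.6 TPM in LB DMSO. Its groups overlapped and the difference of -0.12 did not pass (adjusted p = 0.434), and CDC25C was -0.07 (adjusted p = 0.759).

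The cytokinesis motors KIF20A (-0.46) and KIF23 (-0.45) fell, along with TPX2 (-0.38), an activator of Aurora A, and FOXM1 (-0.29). KIF20A was at 29.8, 25.8 and 30.7 TPM with amiodarone and 38.2, 42.9 and 38.3 TPM in LB DMSO, with a wide gap between the groups. KIF11 (-0.28, adjusted p = 0.0835), NUSAP1 (-0.14, adjusted p = 0.320) and HMMR (-0.14, adjusted p = 0.535) did not pass. BIRC5 (-0.35) and TOP2A (-0.33) fell. The centromere genes did not pass: CENPA was -0.04 (adjusted p = 0.883), CENPE -0.18 (adjusted p = 0.392) and CENPF -0.29 (adjusted p = 0.149). CENPA libraries lay at 28.1, 29.7 and 38.2 TPM with amiodarone and 29.0, 34.3 and 35.0 TPM in LB DMSO, fully overlapping. MKI67 was at 33.0, 30.8 and 37.1 TPM with amiodarone and 50.7, 34.6 and 47.0 TPM in LB DMSO. Its vehicle libraries were spread widely, the lowest lying inside the treated range, and the difference of -0.37 did not pass (adjusted p = 0.0923).

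With 1 library left out, 15 of the 25 amiodarone calls were kept each time. BUB1, RRM1, FEN1, FOXM1, BUB1B, CCNB2, CDT1, TOP2A, TYMS and CDC45 were all lost without LB DMSO replicate 3 (adjusted p = 0.0828 to 0.123) and without LB amiodarone replicate 2 (0.0732 to 0.125), 7 of them each without LB DMSO replicate 1 (0.0749 to 0.126) and LB amiodarone replicate 1 (0.0575 to 0.106), 6 without LB DMSO replicate 2 (0.0602 to 0.0867), 3 without LB amiodarone replicate 3 (0.0567 to 0.116), and CDC45 also without replicate 1 (0.0546) or 3 (0.0517) of amiodarone plus HPbCD, which enters the shared estimate of spread.

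LB cells with amiodarone plus HPbCD were compared with LB cells with amiodarone, the contrast that bears on whether cyclodextrin alters the response to the drug. No member passed limma's test in either direction, where 2.71% of all genes tested rose, 1.36% fell and 4.07% passed in all. At an unadjusted p under 0.05 there were 6 of 48, 4 in the S-phase class and 2 in the mitotic class, below the share of all genes tested (18.0%), and no other tool was run. Median log2 differences were 0.02 in the S-phase class and 0.03 in the mitotic class, beside -0.01 over all genes tested. The libraries did not overlap for 10 genes, with HPbCD above for 7 (12.9% of all genes) and below for 3 (12.2% of all genes). The 95% intervals of all 48 differences lay within 1.5-fold in either direction. A shift smaller than that was therefore not excluded by these libraries.

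The 6 genes with an unadjusted p under 0.05, no more than the background holds, are given as values. They did not share a direction. RRM2 (chromosome 2, 10120698 to 10131419, plus strand) was at 203, 170.4 and 193 TPM with amiodarone plus HPbCD and 157, 154 and 163 TPM with amiodarone. All 3 HPbCD libraries were higher (log2 difference 0.25, 95% interval 0.03 to 0.47, adjusted p = 0.207), and 2 of them lay within the LB DMSO range of 173 to 214 TPM, with 1 just below it. CCNE1 was at 24.5, 24.6 and 21.3 TPM with amiodarone plus HPbCD and 26.4, 28.2 and 27.3 TPM with amiodarone. Here all 3 HPbCD libraries were lower (log2 difference -0.21, 95% interval -0.37 to -0.05, adjusted p = 0.138). MCM3 was at 62.6, 59.8 and 65.9 TPM with amiodarone plus HPbCD, again below the 69.5, 66.7 and 69.2 TPM with amiodarone (-0.12, adjusted p = 0.185). The others were MCM6 (-0.15, adjusted p = 0.270), UBE2C (0.16, adjusted p = 0.179) and BIRC5 (0.13, adjusted p = 0.250).

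Genes with the largest falls under amiodarone lay close in the groups with and without HPbCD. They were picked by a difference that uses the same amiodarone libraries, and that choice can push the HPbCD difference upward. PLK1 was at 70.8, 70.3 and 70.4 TPM with amiodarone plus HPbCD and 75.0, 62.6 and 69.1 TPM with amiodarone. The HPbCD libraries sat inside the range of the others (log2 difference 0.04, 95% interval -0.11 to 0.18). CDC20 was at 87.5, 85.6 and 90.0 TPM with amiodarone plus HPbCD and 85.5, 77.3 and 84.0 TPM with amiodarone. The HPbCD libraries were just above the others (log2 difference 0.09, 95% interval -0.07 to 0.26, adjusted p = 0.580). MCM5 was at 88.1, 80.5 and 78.4 TPM with amiodarone plus HPbCD, overlapping the amiodarone libraries (log2 difference -0.09, 95% interval -0.23 to 0.05). MCM7, KIF11, CDK1 and CENPA differed by 0.00, -0.11, 0.03 and -0.01.

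Against LB DMSO, the combined treatment of amiodarone plus HPbCD gave 28 genes that fell and none that rose, where 7.81% of all genes tested fell, 10.1% rose and 17.9% passed in either direction. The falls took in 12 of 22 S-phase genes (median log2 difference -0.25) and 16 of 26 mitotic genes (median -0.29), beside a median of -0.02 over all genes tested. The 3 treated libraries were below the 3 vehicle libraries for 35 genes, against 20.1% of all genes. This comparison shares the LB DMSO libraries with the amiodarone comparison, so the values below are set side by side and not tested against each other.

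All MCM subunits but MCM2 fell with the combined treatment. MCM5 had the largest difference of the 48 genes, at 88.1, 80.5 and 78.4 TPM with amiodarone plus HPbCD and 124, 118 and 131 TPM in LB DMSO. No treated library came near the vehicle range (log2 difference -0.59 ± 0.066, adjusted p = 7.51e-05). MCM3 was -0.40 with the combined treatment beside -0.27 with amiodarone, MCM4 -0.38 beside -0.34, MCM6 -0.35 beside -0.20, MCM7 -0.29 beside -0.29 and MCM2 -0.01 beside -0.03. POLA1 (-0.38), TYMS (-0.34), CDT1 (-0.28) and RRM1 (-0.22) fell. In G1/S control, UHRF1 (-0.37) and E2F1 (-0.22) fell, and so did CCNE1, at 24.5, 24.6 and 21.3 TPM with amiodarone plus HPbCD and 30.5, 28.2 and 29.1 TPM in LB DMSO (log2 difference -0.31 ± 0.072, adjusted p = 0.0109). The CCNE1 groups were clear of each other. RRM2 was -0.05 (adjusted p = 0.785) and PCNA -0.08 (adjusted p = 0.495), with overlapping groups in both. FEN1 (-0.16, adjusted p = 0.0585), CDC45 (-0.10, adjusted p = 0.300), CDC6 (-0.12, adjusted p = 0.200), GINS2 (-0.22, adjusted p = 0.216) and POLE2 (-0.35, adjusted p = 0.0855) did not pass, and neither did CCND1 (-0.00) or CCNE2 (0.11).

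PLK1 led the mitotic class, at 70.8, 70.3 and 70.4 TPM with amiodarone plus HPbCD and 106, 94.6 and 104 TPM in LB DMSO. The treated libraries were within 1 TPM of each other and far below the vehicle libraries (log2 difference -0.51 ± 0.065, adjusted p = 0.000192). CDC20 was -0.46 with the combined treatment beside -0.55 with amiodarone, KIF20A -0.36 beside -0.46, KIF23 -0.33 beside -0.45, UBE2C -0.25 beside -0.41 and AURKB -0.31 beside -0.40. These differences were smaller with the combined treatment, while those of FOXM1, TPX2, KIF11, TOP2A, CCNB2 and MKI67 were larger. Between amiodarone plus HPbCD and amiodarone, 17 of 26 mitotic genes were higher on average and 9 lower, and none passed the test. FOXM1 (-0.41), TPX2 (-0.40), KIF11 (-0.39) and TOP2A (-0.38) fell, as did CCNB2 (-0.36), BUB1B (-0.30), AURKA (-0.29), CCNB1 (-0.28) and BIRC5 (-0.21). MKI67 fell by 0.41 (adjusted p = 0.0406). Its 3 libraries lay at 34.9, 34.0 and 29.1 TPM with amiodarone plus HPbCD, 1 of them above the lowest of the LB DMSO libraries. BUB1 (-0.12), CCNA2 (-0.21), TTK (-0.23), CENPF (-0.27), HMMR (-0.23), CENPE (-0.15), CDK1 (-0.09), CDC25C (-0.07), NUSAP1 (-0.05) and CENPA (-0.05) did not pass.

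With 1 library left out, 16 of the 28 calls were kept each time. POLA1, RRM1, KIF11, MKI67, BUB1B, CDT1, AURKB, BIRC5, E2F1 and UBE2C were lost without LB DMSO replicate 3 (adjusted p = 0.0510 to 0.130), CCNB1, RRM1, MKI67, BUB1B, CDT1 and E2F1 without LB DMSO replicate 1 (0.0501 to 0.174), BIRC5 without LB DMSO replicate 2 (0.0674), MKI67, BUB1B, KIF23, CDT1, AURKB, BIRC5 and E2F1 without replicate 1 of the combined treatment (0.0537 to 0.151), CCNB1, POLA1, RRM1, MKI67, CDT1, BIRC5, E2F1 and UBE2C without its replicate 2 (0.0508 to 0.0904), and RRM1, MKI67, BUB1B and CDT1 without its replicate 3 (0.0600 to 0.142). CDT1 was also lost without any 1 of the 3 LB amiodarone libraries (0.0503 to 0.0577), and MKI67 without the first of them.

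**Figure D3:**
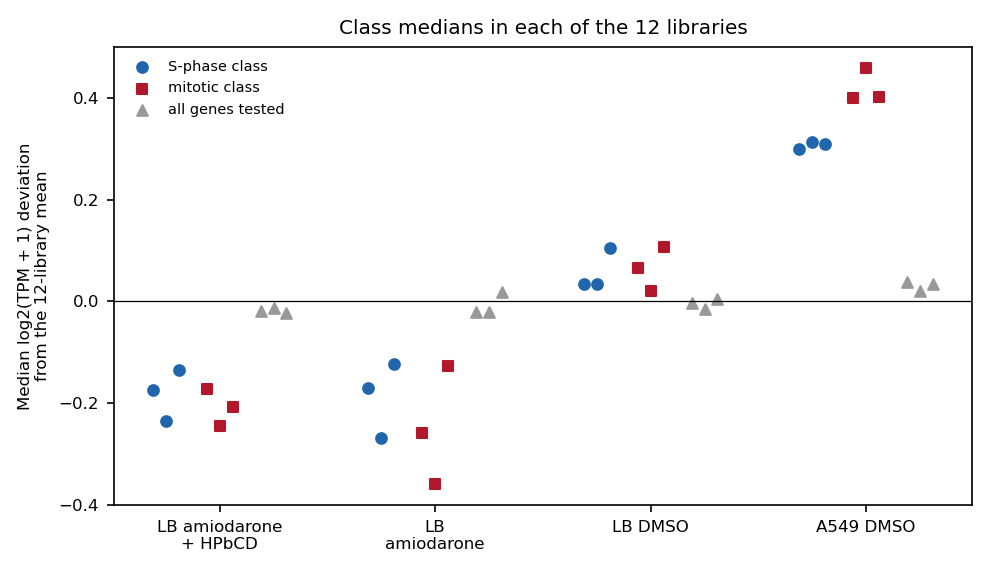
Median deviation of the S-phase class (blue circles), the mitotic class (red squares) and all genes tested (grey triangles) from each gene's mean over the 12 libraries, in log2(TPM + 1), with 1 point per library and group. Both class medians lie between 0.30 and 0.46 in A549 DMSO and between 0.02 and 0.11 in LB DMSO, and are below 0 in all 6 drug-treated libraries, while all genes stay near 0.

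The medians of both classes were highest in A549 DMSO, lower in LB DMSO and lowest in the drug-treated libraries. As medians over genes of the deviation from the 12-library mean, the S-phase class stood at -0.24 to -0.14 in the 3 libraries of amiodarone plus HPbCD, -0.27 to -0.12 with amiodarone, 0.03 to 0.11 in LB DMSO and 0.30 to 0.31 in A549 DMSO. The mitotic class stood at -0.25 to -0.17 with amiodarone plus HPbCD, -0.36 to -0.13 with amiodarone, 0.02 to 0.11 in LB DMSO and 0.40 to 0.46 in A549 DMSO. In both classes every drug-treated library was below every LB DMSO library, and the 2 drug-treated groups overlapped. The S-phase minus mitotic median was -0.00243 to 0.0726 with amiodarone plus HPbCD, 0.00507 to 0.0910 with amiodarone, -0.0308 to 0.0120 in LB DMSO and -0.146 to -0.0925 in A549 DMSO. It was thus lowest in all 3 A549 libraries, where mitotic genes were the more elevated class, while the ranges of the 3 LB groups overlapped. No test was run on these medians, since the genes are not replicates of a condition.

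Other genes of the cycle were put in lists from textbook knowledge, but with earlier results of these data known. A direction shared with the members is therefore not independent evidence. The lists of replication and mitotic machinery leaned to falls where the members did. Of 44 other replication factors, 32 fell and 1 rose in LB DMSO against A549 DMSO (18.2% and 14.2% of all genes tested). With amiodarone against LB DMSO 9 fell (3.72% of all genes) and 35 did not pass. None passed between amiodarone plus HPbCD and amiodarone, where 1.36% of all genes fell and 2.71% rose. With the combined treatment against LB DMSO 14 fell and 1 rose (7.81% and 10.1% of all genes). Those with the largest changes were RFC3 (-0.65), a clamp loader subunit, and POLD3 (-0.55), of polymerase delta, between the lines, MCM10 (-0.48) and RNASEH2A (-0.45), a ribonuclease H2 subunit, with amiodarone, and POLA2 (-0.65) and LIG1 (-0.52), a subunit of the polymerase alpha-primase complex and the replicative ligase, with the combined treatment. The MCM10 call was lost without LB DMSO replicate 1 or LB amiodarone replicate 2 (adjusted p up to 0.0787). ORC4 was the replication factor that rose with the combined treatment against LB DMSO (0.40), and its groups did not overlap. Of 46 other mitotic factors, 27, 17, 0 and 19 fell in the same 4 comparisons, in that order, and none rose. Beside them, 18.2%, 3.72%, 1.36% and 7.81% of all genes tested fell. Examples were ANLN (-0.69), a scaffold of cytokinesis, and ECT2 (-0.53) between the lines, INCENP (-0.51), the scaffold of the Aurora B complex, and CDCA3 (-0.47) with amiodarone, and NCAPD2 (-0.58), of condensin, with the combined treatment. Their median differences were -0.30, -0.26, 0.02 and -0.25 for mitotic factors and -0.30, -0.18, -0.05 and -0.22 for replication factors.

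**Figure D4:**
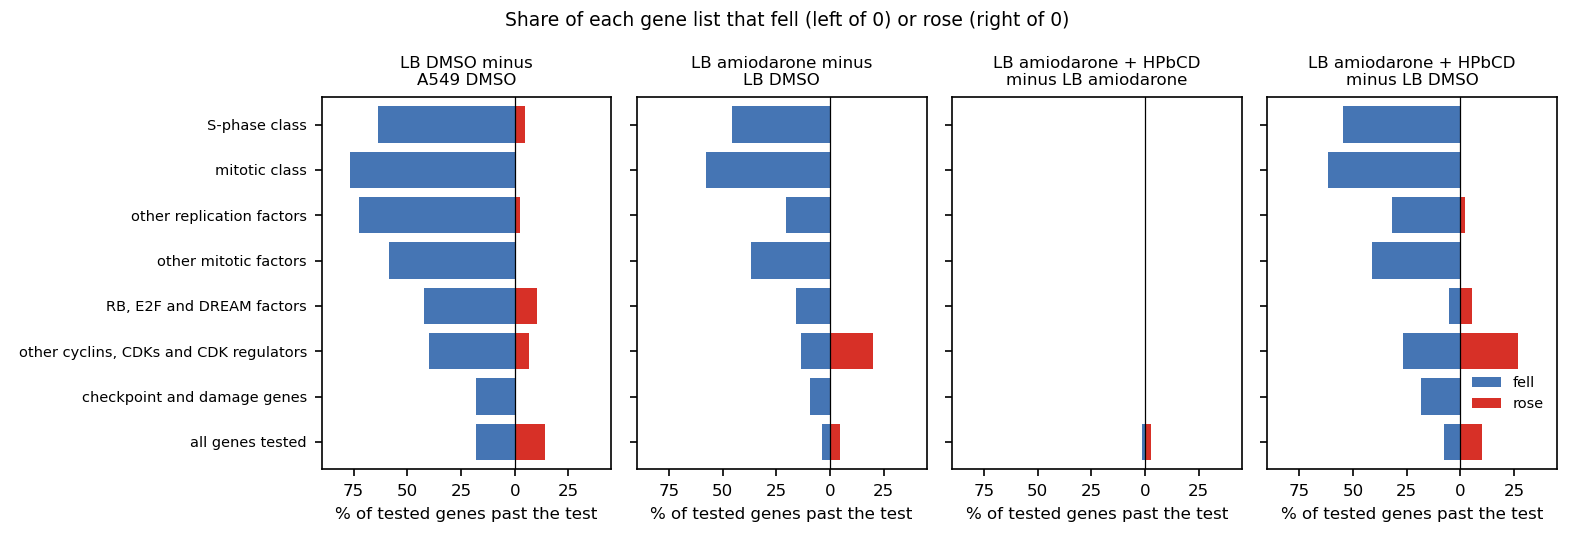
Share of tested genes in each list that fell (blue, left of 0) or rose (red, right of 0) at an adjusted p under 0.05, in 4 panels by comparison, first-named group against second, with all genes tested in the bottom row. The S-phase and mitotic classes and the further replication and mitotic factors lean to falls in 3 panels, and no cycle list has a call between amiodarone plus HPbCD and amiodarone.

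Regulators of the cycle were less uniform. CDKN1A, the CDK inhibitor p21, was at 178, 216 and 152 TPM in LB DMSO, against 68.8, 55.7 and 80.3 TPM in A549 DMSO. It was higher in every LB library (log2 difference 1.40 ± 0.18, adjusted p = 6.62e-05). With amiodarone it was at 196, 236 and 162 TPM (0.12 against LB DMSO, adjusted p = 0.757), and with amiodarone plus HPbCD at 228, 273 and 192 TPM (0.34 against LB DMSO, adjusted p = 0.206). The LB groups overlapped each other, and in each of them replicate 2 was highest and replicate 3 lowest. Among LB libraries with the same replicate number, the one with amiodarone plus HPbCD was highest and the one in LB DMSO lowest, for all 3 numbers. These differences did not pass with the replicate number as a block in limma either (adjusted p = 0.737 for amiodarone and 0.190 for amiodarone plus HPbCD, each against LB DMSO). That block takes the same effect of each number in all groups. In A549 DMSO the order was the reverse, with replicate 2 lowest and replicate 3 highest. The block therefore could not remove the order seen in the LB groups, and a pairing within LB cells alone was not tested. CDKN1B, the inhibitor p27, did not pass in any comparison, with differences of -0.16 between the lines and 0.08 with amiodarone. Of 19 RB, E2F and DREAM genes, 8 fell and 2 rose between the lines (18.2% and 14.2% of all genes tested). The rises there were no more than the background holds. With amiodarone 3 fell (3.72% of all genes). With the combined treatment against LB DMSO 1 fell and 1 rose, where 7.81% of all genes fell and 10.1% rose. These counts too were no more than the background holds. RBL1 (p107, -0.62), E2F7 (-0.46), E2F8 (-0.43), RB1 (-0.39) and MYBL2 (-0.36) fell between the lines and E2F3 (0.43) rose. The E2F7 call was lost without replicate 1 or 3 of A549 DMSO or replicate 2 or 3 of LB DMSO (adjusted p up to 0.129). With amiodarone E2F8 (-0.34, adjusted p = 0.0473), MYBL2 (-0.26, adjusted p = 0.0381) and TFDP1, a partner of E2F proteins (-0.26, adjusted p = 0.0480), fell. The E2F8 call was lost without any 1 of 10 libraries, LB amiodarone replicate 3 and A549 DMSO replicate 2 being the exceptions (adjusted p up to 0.145), and that of MYBL2 without LB DMSO replicate 1 or 3, LB amiodarone replicate 1 or 2, or the first library of amiodarone plus HPbCD (up to 0.129). That of TFDP1 was lost without any 1 library other than A549 DMSO replicate 2 (up to 0.142). With the combined treatment RBBP4, a histone-binding protein, fell (-0.17, adjusted p = 0.0428) and LIN54, a DNA-binding subunit of DREAM, rose (0.32, adjusted p = 0.0397). The RBBP4 call was lost without A549 DMSO replicate 1, any 1 LB DMSO library, or replicate 2 or 3 of either amiodarone group (up to 0.137), and that of LIN54 without LB DMSO replicate 1 or 3, LB amiodarone replicate 1, or any 1 library of amiodarone plus HPbCD (up to 0.139). MYC did not pass in any comparison, and its differences lay between -0.10 and 0.06.

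Other cyclins, CDKs and CDK regulators changed in both directions. Of 15 tested, 1 rose and 6 fell between the lines (14.2% and 18.2% of all genes tested), the rise being no more than the background holds. With amiodarone 3 rose and 2 fell (4.90% and 3.72% of all genes). With the combined treatment against LB DMSO 4 rose and 4 fell (10.1% and 7.81% of all genes). CCNG2, cyclin G2, which is linked to cell cycle exit, was at 12.5, 12.6 and 13.5 TPM with amiodarone, against 7.35, 5.85 and 6.50 TPM in LB DMSO. The treated libraries were clear of the vehicle libraries (log2 difference 0.88 ± 0.19, adjusted p = 0.0143), though the call was lost without LB DMSO replicate 2 or LB amiodarone replicate 3 (adjusted p up to 0.0552). With amiodarone plus HPbCD it was at 15.2, 12.7 and 12.3 TPM, again above LB DMSO (0.92, adjusted p = 0.00499). CCNG1, cyclin G1, a p53 target, rose by 0.45 with amiodarone (adjusted p = 0.00926), at 83.1, 87.5 and 84.1 TPM and 61.2, 60.2 and 64.7 TPM in LB DMSO. CKS2, a small CDK-binding protein, was at 595, 502 and 562 TPM with amiodarone plus HPbCD and 416, 393 and 420.4 TPM in LB DMSO (log2 difference 0.43, adjusted p = 0.00143). The groups did not overlap. It also rose with amiodarone (0.26, adjusted p = 0.0451), a call lost without A549 DMSO replicate 1 or 3, any 1 LB DMSO library, LB amiodarone replicate 1 or 3, or the last library of amiodarone plus HPbCD (up to 0.154). CCNF, cyclin F, fell with amiodarone (-0.41) and with the combined treatment (-0.48), and CCND3 (-0.87) and CDK6 (-0.62) fell between the lines. PKMYT1, a kinase that inhibits CDK1, fell with amiodarone (-0.44, adjusted p = 0.0146), which was lost without LB DMSO replicate 3 or LB amiodarone replicate 1 or 3 (up to 0.0613). With the combined treatment CCNG1 (0.28) and CDK4 (0.23) rose, and CDK6 (-0.34), PKMYT1 (-0.33) and SKP2 (-0.29), a ubiquitin ligase subunit that targets p27, fell. Each of these 5 calls was lost without LB DMSO replicate 1 or replicate 1 or 2 of amiodarone plus HPbCD, and without 3 to 6 further libraries (adjusted p up to 0.168).

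Some members are less certain as measured. GENCODE 29 names 4 pseudogenes after UBE2C, 3 each after PCNA and RRM2, 2 each after TYMS and AURKA, and 1 each after FEN1, BUB1, CCNB2, CDC20 and MKI67, with which reads can be shared. On the same strand, BUB1B overlaps a read-through gene, FEN1 overlaps FADS2 and CENPA overlaps SLC35F6.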

How the data were processed

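RNA was measured by stranded mRNA sequencing with 100-bp paired reads in 12 libraries, per the labels' protocols. The authors deposited TPM per gene symbol, and per the submitters' processing notes used STAR 2.7.3a, RSEM 1.3.1 and GRCh38. Which annotation release they used is not given in sources used here. RSEM divides reads shared between genes by an estimate. Of 57189 rows, 37 hold no value, and 0 columns lack a sample. TPM keeps no depth, so no count model and no counting interval was possible.

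Values were taken as log2(TPM + 1), a pseudocount of 1, for the 13968 genes whose mean TPM reached 1. All 4 groups entered 1 limma 3.58.1 fit (R 4.3.3, mean-variance trend, 8 residual degrees of freedom), with two-sided p-values adjusted by Benjamini-Hochberg over all genes tested in each comparison, threshold 0.05. The code was tested on simulated data. Symbols were placed by GENCODE 29. All 48 members could be named, with CDKN1A, CDKN1B, RB1, RBL1, MYBL2, E2F7, E2F8 and MYC and, per comparison and further list, up to 4 genes past the test with the largest difference and no overlap of groups. CCNG1, CKS2, TFDP1, RBBP4, LIN54, PKMYT1, CDK4 and SKP2 are named as their lists' other changed genes, chosen after their values were seen. The further lists were CDK inhibitors, RB, E2F and DREAM factors, other cyclins and CDKs, other replication factors, other mitotic factors, and checkpoint and damage genes. Identity lists were epithelial, alveolar type II, fibroblast, leukocyte and endothelial markers. Members and lists were chosen with earlier results of these data known. Alternatives were a pseudocount of 0.1 or 5, a filter at 5 TPM or none, quantile normalization or median-of-ratios scaling, limma without trend, a fit of 2 groups alone, a replicate block, and each library left out.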

Additional observations from a re-analysis of the deposited data

How the results depend on the processing

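No difference of a member changed sign once called, under any of 21 alternatives in the 4 comparisons. Under every alternative, 29 of 35 calls between the lines, 15 of 25 for amiodarone and 16 of 28 for amiodarone plus HPbCD, both against LB DMSO, were kept. Between amiodarone plus HPbCD and amiodarone no member passed under any of them. Under amiodarone the 10 S-phase falls became 6 with no filter on low values and 6 in limma without trend. With 1 library left out that count was 5 to 11, and the mitotic count for the combined treatment against LB DMSO was 10 to 16. Median log2 differences with 1 library left out were -0.39 to -0.26 for mitotic genes under amiodarone, -0.29 to -0.22 for S-phase genes between the lines, and, for HPbCD against amiodarone, -0.040 to 0.051 for S-phase and -0.026 to 0.10 for mitotic genes, so the sign of the last 2 is not fixed. Which causes lie behind these shifts was not tested.

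The labels do not say what a replicate number stands for. Deviations of same-numbered libraries correlated at -0.03 to 0.21 across genes, under 0.1 for at least 1 number in every comparison, so the numbers were not taken to pair the libraries. Some values do go with the number, and a shared effect may be present: 3 to 5 of 6 libraries correlated best with their own number, and CDKN1A was highest and both class medians lowest in replicate 2 of every LB group. For the S-phase median in LB DMSO the margin was slight, with 0.0334 in replicate 2 beside 0.0349 in replicate 1. With the replicate block, S-phase calls were 15, 10, 0 and 12 and mitotic calls 21, 17, 0 and 16 between the lines, for amiodarone, for HPbCD against amiodarone and for the combined treatment against LB DMSO, in that order. Depth cannot be read from TPM, so genes at a few TPM, such as CCNE2 and CENPE, carry an unknown counting error.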

Other observations

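None of the 11 checkpoint and damage genes rose, and 0 to 2 fell in each comparison. In LB DMSO against A549 DMSO, where 18.2% of all genes tested fell, 2 fell, CHEK1 (-0.38), a replication stress kinase, and BLM (-0.24), a helicase. That count was no more than the background holds. With amiodarone against LB DMSO 1 fell (3.72% of all genes), FANCD2 (-0.40), of the Fanconi anaemia pathway. With amiodarone plus HPbCD against LB DMSO 2 fell (7.81% of all genes), the exonuclease EXO1 (-0.39) and TOPBP1 (-0.35), an activator of the checkpoint kinase ATR. The CHEK1 call was kept whichever library was left out. The BLM call was lost without any 1 of the A549 DMSO libraries, LB DMSO replicate 1 or 2, or the last library of amiodarone plus HPbCD (adjusted p up to 0.119), and that of FANCD2 without LB DMSO replicate 2 or 3 or any 1 of the LB amiodarone libraries (up to 0.133). EXO1 was lost without LB DMSO replicate 3 or replicate 2 or 3 of amiodarone plus HPbCD (up to 0.0636), and TOPBP1 without LB DMSO replicate 1 or 3 or replicate 1 or 2 of amiodarone plus HPbCD (up to 0.0672). Of 4 CDK inhibitors tested, 1 fell and 1 rose between the lines (18.2% and 14.2% of all genes), CDKN2C (p18, -0.55) and CDKN1A (1.40). With amiodarone plus HPbCD against LB DMSO 1 fell and 1 rose (7.81% and 10.1% of all genes), CDKN2C (-0.48) and CDKN2D (p19, 0.50).

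In each LB group the library with the most CDKN1A was also the one with the lowest median of both classes, and in all 3 groups this was replicate 2, so the groups are not separate instances of the pattern. It had 273 TPM with amiodarone plus HPbCD, where the mitotic median was -0.25, 236 TPM with amiodarone (-0.36) and 216 TPM in LB DMSO (0.02). In LB DMSO the S-phase medians of replicates 2 and 1 were nearly tied (0.0334 and 0.0349). The summed S-phase level there was lowest in replicate 1 (1986 TPM, beside 2022 TPM in replicate 2). In A549 DMSO the library with the most CDKN1A, at 80.3 TPM, had the second highest mitotic median (0.40). With 3 libraries in a group this was not tested.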
